A study of Mus musculus with 40 samples.

Results

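The comparison of Flt3-ITD with wild type for H3K27ac covered 6 of the 40 samples of the series, 3 per genotype, each group deposited as 1 peak list pooled over its samples. Peaks of both lists that touched by at least 1 bp were merged into 50828 regions of the mouse genome, and a region belonged to a list with a peak in it. The Flt3-ITD list alone held 15317 regions (30.1%), the wild-type list alone held 15654 (30.8%), and 19857 (39.1%) were in both. Both classes of one-list region are described below across genes and positions, beside the shared regions.

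The series profiled H3K27ac and H3K4me1 by ChIPmentation, in which the transposase Tn5 inserts sequencing adapters into chromatin captured by an antibody, in stem and progenitor cells (HSCs and HPCs) sorted from mice 21 days old. The genotypes compared were wildtype and Flt3-ITD. The H3K27ac lists of Runx1-het, Flt3-ITD/Runx1-het, NUP98-HOXD13 and Flt3-ITD/NUP98-HOXD13, and the H3K4me1 lists of wild type and Flt3-ITD, were used only as further readouts over the same regions. Source names of the Runx1-het samples read Runxf and Vav, and no further detail of that allele is used here. Whether a Flt3-ITD mouse carried 1 or both mutant copies, the surface markers of the sort and whether a sample was 1 animal or a pool are not stated in these sources.

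FLT3 is a receptor tyrosine kinase of early haematopoietic progenitors, and the internal tandem duplication (ITD), a frequent lesion of acute myeloid leukaemia, makes it signal without its ligand. Signals of the mutant receptor run through RAS and the MAP kinases, PI3 kinase and AKT, and, more than those of the normal receptor, through STAT5, a transcription factor that binds paired TTC and GAA half-sites and switches on feedback inhibitors, cyclins and survival genes. H3K27ac marks active promoters and enhancers, while H3K4me1 marks enhancers whether or not they are active.

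With 1 pooled list per group there was no value per animal, no spread between animals and no test. Each fold enrichment below is the authors' own value at a peak summit, and it ranks peaks within its list. The control behind it is not stated in these sources. A region outside a list had no peak there that passed the authors' threshold, which does not show that the mark was absent. Read depth is unknown, and the 95% Wilson intervals in brackets cover counting error only.

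The lists differed in shape as well as in content. The Flt3-ITD list had 36008 peaks covering 41.7 Mb with a median width of 769 bp, and the wild-type list had 43363 peaks covering 28 Mb with a median width of 389 bp. In 5416 of the shared regions (27.3%) several wild-type peaks lay within 1 Flt3-ITD peak, against 338 (1.7%) the other way round. At a fold enrichment of 4 to 6 the median −log10 q was 6.6 in the Flt3-ITD list and 4.07 in the wild-type list. Fold enrichment at promoters with a peak in both lists was higher in the Flt3-ITD list at 6920 of 8253 genes (83.8%), including 13 of 13 ubiquitously active promoters. At shared regions away from promoters it was higher in the Flt3-ITD list at 6578 of 12045 (54.6%), with medians of 5.25 and 5.33, so the scales did not differ by one factor. Values of the 2 lists are therefore set side by side and not read as changes.

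Over the whole genome the one-list regions divided evenly, with 49.5% (48.9 to 50%) of 30971 held by Flt3-ITD. That even division depended on the threshold: among one-list regions whose peak had a −log10 q of at least 5, with the full other list still lacking a peak, 4460 were held by Flt3-ITD and 967 by wild type (82.2% Flt3-ITD). It also depended on list length, since with both lists cut to the length of the shorter by −log10 p the Flt3-ITD share was 61.3%. The X chromosome had the highest Flt3-ITD share of any chromosome, 57.9% (52.7 to 62.9%) of its one-list regions.

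One-list regions were weak and narrow in both directions. Their median fold enrichment was 3.67 for Flt3-ITD only and 3.68 for wild-type only regions, against 6.47 and 5.97 at shared regions, and their median widths were 471 and 237 bp against 1495 bp. In the lowest decile of the Flt3-ITD list by fold enrichment, 80.6% of regions had no wild-type peak, and in the highest decile 3 of 3517 had none (0.0853%). In wild type the same shares were 84.1% and 0.0282%, the latter being 1 region. The strongest acetylated regions were thus held by both genotypes: at the promoters of the RNA-binding protein gene Unk and of the nuclear pore gene Ranbp2 the Flt3-ITD peaks had 95.8 and 79 and the wild-type peaks 52.4 and 56.4.

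**Figure D1:**
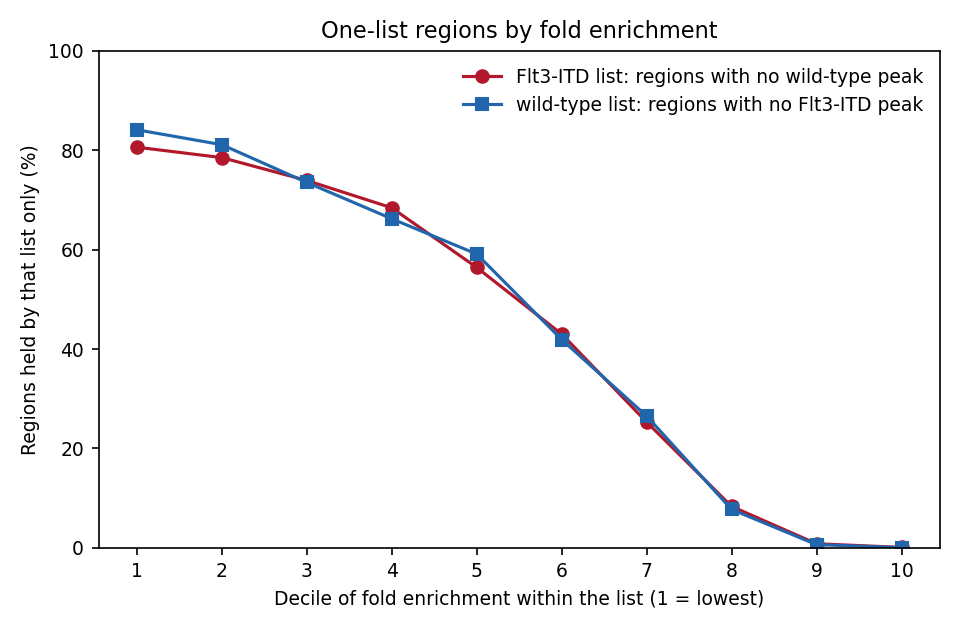
Share of regions held by 1 list only (y axis, percent) in deciles of each list ordered by fold enrichment (x axis, 1 is the lowest). Red circles are the Flt3-ITD list and blue squares the wild-type list, and both fall from over 80% in the lowest decile to 0.0853% and 0.0282% in the highest.

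The 3 regions in the top decile of the Flt3-ITD list without a wild-type peak lay at Socs2, Ect2l and Gatb. Socs2, which encodes a feedback inhibitor of cytokine receptors, came first: a region of 4928 bp over its promoter (chr10:95412067-95416994, mm10) carried a Flt3-ITD peak with a fold enrichment of 15.4 and no wild-type peak. Over the same region Flt3-ITD/Runx1-het reached 17.8 and Flt3-ITD/NUP98-HOXD13 reached 12, against 3.75 in NUP98-HOXD13, and Runx1-het had none. The 3 lists with the ITD thus had the highest values at the Socs2 promoter. At Ect2l the region was intronic, 22.7 kb from the nearest start site (chr10:18174910-18178620), with 14.7 in Flt3-ITD and 5.77 and 5.42 in NUP98-HOXD13 and Runx1-het. The Gatb promoter (chr3:85573873-85575533), of a gene for a mitochondrial amidotransferase subunit, had 13.8 in Flt3-ITD and 9.79 to 15 in the other mutant lists, so that wild type was the only one of the 6 lists without it. The same pattern held for the next promoters in the order, the histone H2A gene Hist1h2an (13), Arl2bp (11.9), Spryd7 (11.4) and Kcnab2 (10.7), each with peaks in all 5 mutant lists and none in wild type.

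The strongest region held by wild type only had a fold enrichment of 11.3 and lay between genes, 21 kb from the start of 1700016K19Rik (chr11:75978290-75978897). NUP98-HOXD13 and Runx1-het held it at 3.87 and 7.3, and none of the 3 lists with the ITD did. The next, at the promoter of the transcription factor gene Tfcp2, had 8.62 in wild type and 5.03 to 7.28 in the 4 other lists, so that only Flt3-ITD lacked it. A region in an intron of Selp, the P-selectin gene of platelets and endothelium (chr1:164119500-164119760), had 7.88 in wild type and no peak in any of the 5 mutant lists. Rnf145 and Sh3gl1 had intronic regions at 7.97 each that only the Flt3-ITD list lacked.

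The STAT5 targets had the highest Flt3-ITD share of the gene lists over all one-list regions. Regions went to the nearest protein-coding start site within 50 kb; over all genes 11154 of 37472 such regions (29.8%) were held by Flt3-ITD only and 10081 (26.9%) by wild type only, a Flt3-ITD share of one-list regions of 52.5%. At the 19 STAT5 targets 53 regions were held by Flt3-ITD only, 16 by wild type only and 41 by both, a share of 76.8% (65.6 to 85.2%). Of the 19 genes, 15 had a Flt3-ITD only region and 10 a wild-type only region, beside 26.9% and 25.3% of all 21840 genes. These regions were clustered at 4 genes, Socs1, Socs2, Cish and Ccnd3; without those genes the list had 18 and 13 regions, 58.1% (40.8 to 73.6%). STAT5 targets also ranked first after joining across 500 bp and over regions merged from 6 lists, but not under the other 2 settings tried: with equal-length lists T and NK genes had 13 and 2 regions (86.7%, STAT5 targets 83.3%), and among one-list peaks with a −log10 q of at least 5 several lists with few regions, the largest being the interferon genes with 12 and 0, had no wild-type only region. The nearest gene need not be the gene that a region serves.

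**Figure D2:**
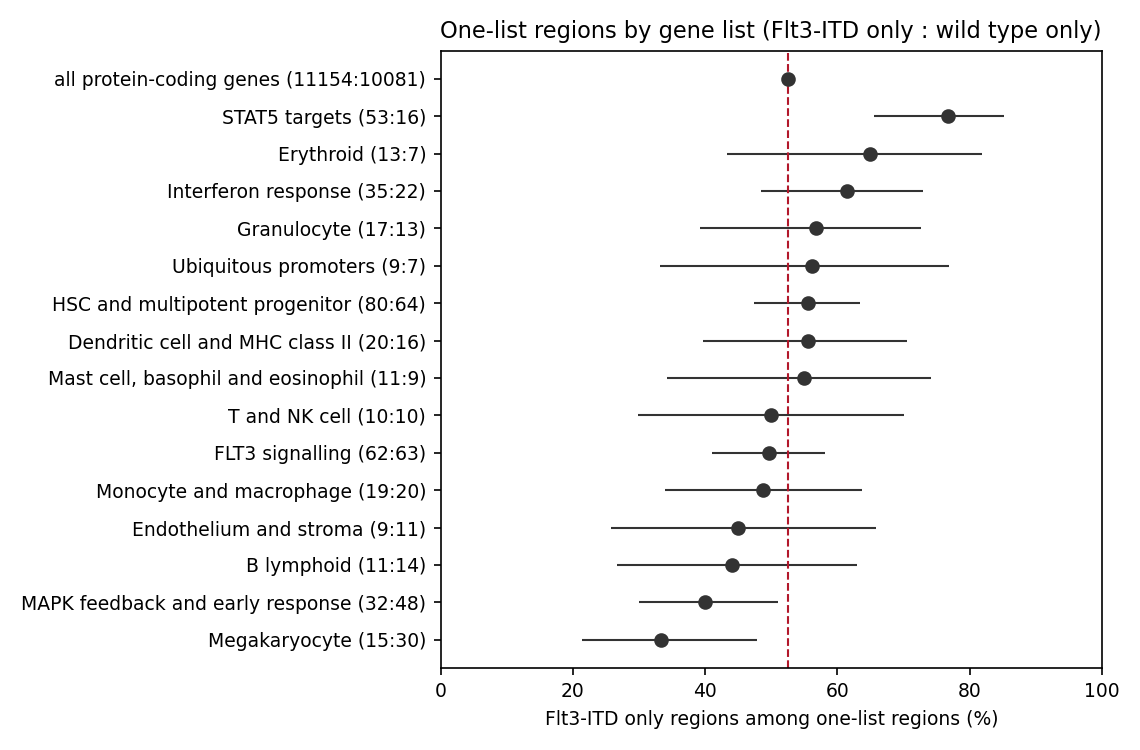
Flt3-ITD only regions as a share of one-list regions (x axis, percent) for all protein-coding genes and for each gene list with at least 5 one-list regions, with the 2 counts in brackets (Flt3-ITD only, then wild type only). Bars are 95% Wilson intervals and the dashed line is the share over all genes, 52.5%; STAT5 targets lie highest at 76.8% and megakaryocyte genes lowest at 33.3%.

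Among the feedback inhibitors, Socs2 had 11 Flt3-ITD only regions, no wild-type only region and 2 shared regions. The Flt3-ITD only regions had fold enrichments from 2.5 to 15.4 and several were pieces of 1 broad stretch: joined across gaps of up to 500 bp they numbered 4, still with none in wild type. The stronger of the shared regions, in the gene body (chr10:95394488-95398705), stood at 10.9 in Flt3-ITD against 5.92 in wild type, with 10.6 and 15.3 in the double mutants and 3.19 and 7.3 in NUP98-HOXD13 and Runx1-het. Cish, which encodes the SOCS family protein that blocks STAT5 docking, had 6 Flt3-ITD only regions, none in wild type only and 2 shared, or 1 Flt3-ITD only region once joined. The Cish promoter region (chr9:107295711-107296988) had a fold enrichment of 5.52 with Flt3-ITD alone and 6.07 with NUP98-HOXD13 added. With Runx1-het added the peak over the start had 6.39, and a separate peak mostly downstream of the region had 7.81. Runx1-het by itself had 5.19, NUP98-HOXD13 by itself 3.67, and wild type no peak. Socs1, an inhibitor of JAK kinases, had 5 regions in Flt3-ITD only, none in wild type only, and a shared promoter region at 13.2 in Flt3-ITD and 8.29 in wild type. Socs3 had a single Flt3-ITD only region and no promoter peak in either list.

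Ccnd3, the gene of cyclin D3, had 13 Flt3-ITD only, 3 wild-type only and 5 shared regions, or 7 and 1 one-list regions after joining. Its strongest shared region (chr17:47509283-47512099) had 16.2 in Flt3-ITD and 12.9 in wild type. Ccnd1 had no Flt3-ITD promoter peak and a wild-type one at 3.02, and Ccnd2 had promoter peaks in both, 8.24 and 5.11. Of the survival genes, Bcl2l1 (BCL-XL) had a promoter peak at 7.21 in Flt3-ITD, at 3.67 to 8.56 in the other mutants and none in wild type. Pim1, the kinase gene, had 4 and 3 one-list regions and a promoter peak in both lists, at 54.2 and 28.5. Mcl1 went the other way in counts, with no Flt3-ITD only and 3 wild-type only regions beside 7 shared ones. Myc had 4 shared regions and no one-list region.

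**Figure D3:**
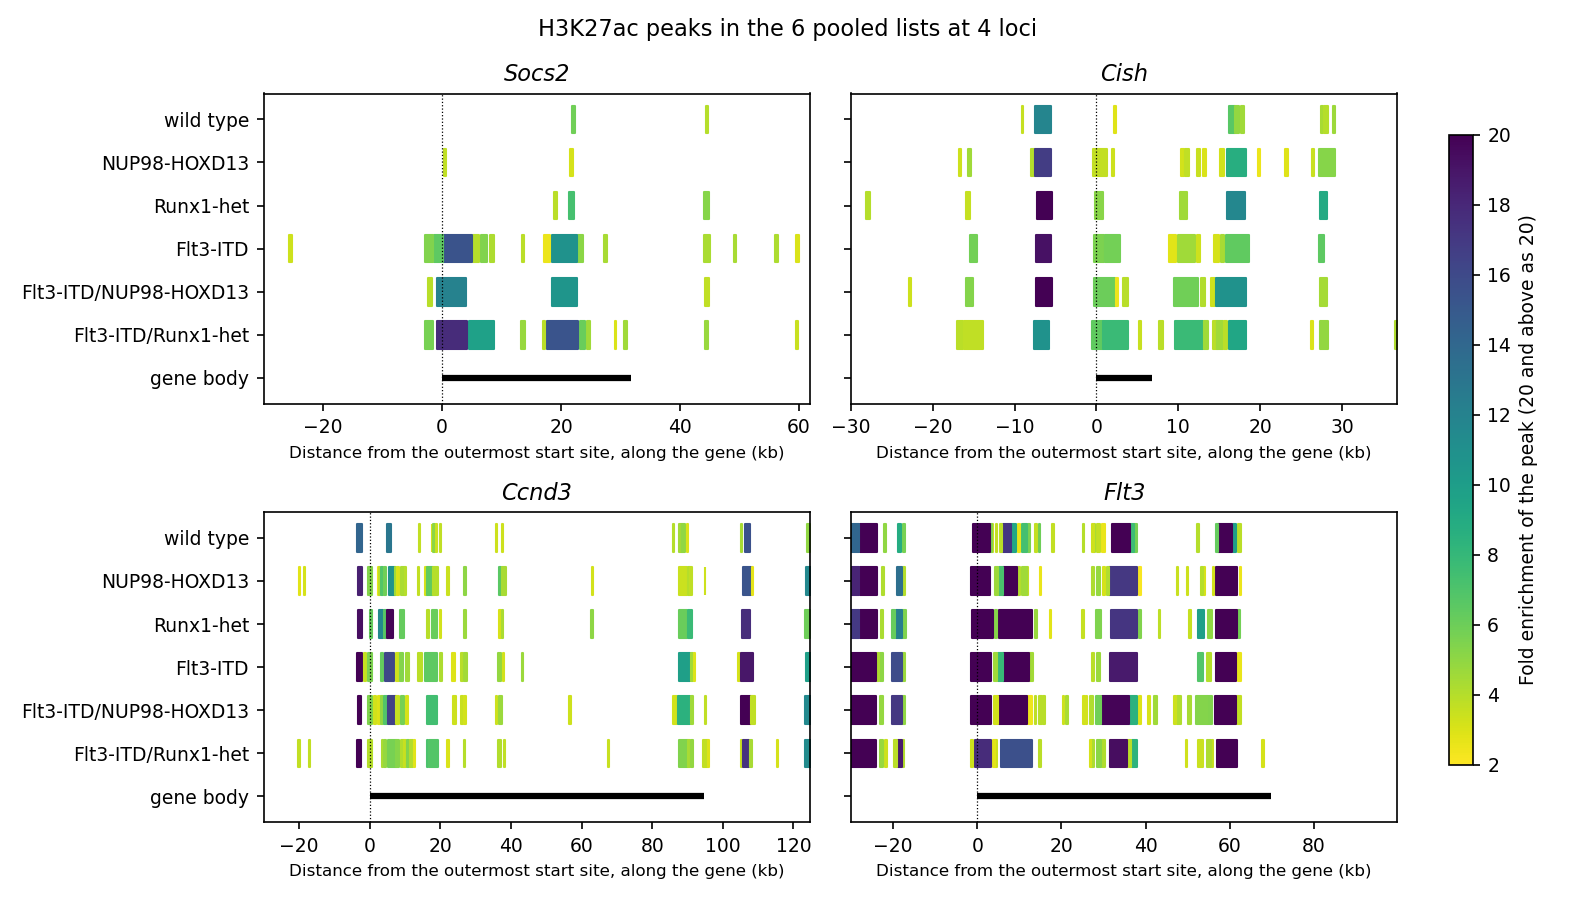
H3K27ac peaks of the 6 pooled lists (rows) around Socs2, Cish, Ccnd3 and Flt3; the x axis is the distance in kb from the gene's outermost annotated start site, along the gene, and the black bar is the gene body. Color is the authors' fold enrichment of each peak within its own list, with 20 and above drawn alike; peaks near the panel edges can belong to neighboring genes. At Socs2 and Cish the wild-type row has fewer peaks than the Flt3-ITD row, and at Flt3 the rows have peaks at largely the same places.

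H3K4me1, which was not used to choose the regions, was compared over the STAT5 target regions. Of the 53 Flt3-ITD only regions, an H3K4me1 peak of Flt3-ITD lay over 40 (75.5%, 62.4 to 85.1%) and one of wild type over 17 (32.1%, 21.1 to 45.5%). Over the 11154 Flt3-ITD only regions at all genes the same shares were 54.6% and 39.8%. The Flt3-ITD/Runx1-het list held 71.7% of the 53, Flt3-ITD/NUP98-HOXD13 54.7%, NUP98-HOXD13 47.2% and Runx1-het 24.5%, beside 44.9%, 45.8%, 35.9% and 30.1% at all genes. Neighboring pieces of 1 stretch count separately in these shares.

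The sequences below, from RefSeq on GRCm38.p6, show where the letters of a STAT site or of an interferon-stimulated response element stand in 4 promoters that only the Flt3-ITD list of the pair held. The capitals mark the STAT motif TTCNNNGAA and the response element motif (GAAA, any 2 bases, GAAA), both searched on either strand. At Cish 30 bases are given, from 5 before to 24 after the RefSeq start (chr9:107296654-107296683, plus strand), since GENCODE places an exon there; they hold 2 STAT motifs. For Ctsg (chr14:56102575-56102824, minus strand), Igtp (chr11:58199306-58199555, plus strand) and Ifit3 (chr19:34583279-34583528, plus strand) the 250 bases before the start are given.
Cish: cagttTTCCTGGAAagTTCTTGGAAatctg
Ctsg: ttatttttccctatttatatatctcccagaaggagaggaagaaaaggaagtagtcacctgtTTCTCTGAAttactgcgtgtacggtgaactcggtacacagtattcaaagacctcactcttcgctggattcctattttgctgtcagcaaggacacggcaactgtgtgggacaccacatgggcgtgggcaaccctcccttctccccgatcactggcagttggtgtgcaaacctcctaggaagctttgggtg
Igtp: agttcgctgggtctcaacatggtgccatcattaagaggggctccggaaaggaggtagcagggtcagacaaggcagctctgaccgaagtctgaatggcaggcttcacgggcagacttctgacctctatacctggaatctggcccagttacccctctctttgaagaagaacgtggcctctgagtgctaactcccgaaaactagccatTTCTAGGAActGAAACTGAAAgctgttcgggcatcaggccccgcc
Ifit3: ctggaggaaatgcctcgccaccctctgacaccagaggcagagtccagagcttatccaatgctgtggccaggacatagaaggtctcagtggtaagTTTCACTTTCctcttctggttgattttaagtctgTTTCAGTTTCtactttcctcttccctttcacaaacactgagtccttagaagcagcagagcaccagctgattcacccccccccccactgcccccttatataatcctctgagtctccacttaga

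These 4 were picked for their motifs and do not stand for the class. In RefSeq promoter windows, 250 bases before to 50 after a start, the STAT motif was in 86 of 1082 windows held by Flt3-ITD only (7.95%, 6.48 to 9.71%), in 7.26% of 234 held by wild type only, in 7.02% of 8714 held by both and in 8.29% of all 32817 windows. The response element motif was in 3.51% of Flt3-ITD only windows and 3.43% of all. Its share was highest in wild-type only windows, 17 of 234 (7.26%, 4.59 to 11.3%). The HOX/PBX motif TGATTNAT was in 15 of the 234 wild-type only windows (6.41%, 3.92 to 10.3%) and in 1.29% of the Flt3-ITD only windows, beside 3.22% of all. Base composition differed between these sets too, with a median of 19 CpG per window in Flt3-ITD only, 12 in wild type only, 22 in both and 4 in neither, and its part in the motif shares was not tested. Motifs at distal summits were not analysed here.

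The receptor and its signalling genes were even in count. The 26 FLT3 signalling genes had 62 Flt3-ITD only and 63 wild-type only regions (49.6%, 41.0 to 58.2%) beside 98 shared ones. Flt3 itself, with the mutant allele in one genotype, had no Flt3-ITD only region, 7 wild-type only regions and 7 shared ones. The wild-type only regions at Flt3 had fold enrichments of 2.57 to 5.99 and lay between strong shared regions; joined across 500 bp, they numbered 2. The Flt3 promoter was shared at 38.4 in Flt3-ITD and 23.5 in wild type, with 17.8 to 31.3 in the other lists. Syk, a cytoplasmic tyrosine kinase, had 11 Flt3-ITD only and 4 wild-type only regions. Flt3l, the ligand gene, had 3 Flt3-ITD only regions and a promoter peak at 3.23 in Flt3-ITD, at 3.8 to 7.44 in the other mutants and none in wild type. Sos1, the RAS exchange factor, had a promoter peak in Flt3-ITD (9.09) and none in wild type. A region held by both lists also reached within 1 kb of its start. Gab1, an adaptor, had a promoter peak in wild type (3.35) and none in Flt3-ITD. Stat5a and Stat5b had promoter peaks in both lists, at 11.3 and 10.9 for Stat5a and 10.9 and 11.9 for Stat5b.

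Feedback and early response genes of the MAP kinase pathway had 32 Flt3-ITD only and 48 wild-type only regions (40%, 30 to 51%), and 16 of the 21 had a promoter peak in each list. Over all genes 37.8% had a promoter peak in both lists. Dusp6, a phosphatase of ERK, had 3 and 7 one-list regions, and its promoter peak had 20.5 in Flt3-ITD and 15.5 in wild type. Dusp4 had 1 and 5, and Dusp5 had 5 and 2. No promoter of the list was held by 1 genotype only. Among one-list peaks with a −log10 q of at least 5, the direction of the list turned, with 6 Flt3-ITD only and 1 wild-type only region, beside 3452 and 688 at all genes. It also turned with equal-length lists, at 35 and 32 (52.2%), beside 64% at all genes. The direction held after joining (18 and 25) and over 6 lists (23 and 30).

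Stem and progenitor genes, listed for the cell types named in the labels, mostly had promoter peaks in both lists. Of their 27 promoters 17 had a peak in both lists (37.8% over all genes), 1 in Flt3-ITD only (Ctnnal1) and 1 in wild type only (Gata2). The rest had no promoter peak in either list: Procr, Ly6a, Slamf1, Hoxb5, Vwf, Tek, Fgd5 and Esam. Erg (55.4 in Flt3-ITD, 59.3 in wild type), Meis1 (47.5 and 40.2) and Myct1 (38.2 and 27.7) were among the strongest, and none of the 18 genes not expressed in blood had a promoter peak in either list. The 27 genes had 80 Flt3-ITD only and 64 wild-type only regions (55.6%, 47.4 to 63.4%). Cd34, a surface marker of progenitors, had 7 Flt3-ITD only and 1 wild-type only region, and its promoter had 12.4 and 7.64. Runx1 had 16 and 10, Erg 9 and 3, and Kit 4 and 1. Mecom, whose zinc finger product maintains stem cells, had 12 and 16, and 10 and 13 over regions merged from 6 lists. The Mecom counts turned to 15 and 11 with equal-length lists, 9 and 8 after joining and 5 and 1 at a −log10 q of at least 5. Gata2 had 3 of each, with a promoter peak at 5 in wild type and none in Flt3-ITD. At the self-renewal gene Mllt3 the promoter peak had 5.97 in wild type and 2.46 in Flt3-ITD.

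Of the myeloid lists, the granulocyte genes had 17 Flt3-ITD only and 13 wild-type only regions (56.7%, 39.2 to 72.6%), and 5 of 18 had a promoter peak in Flt3-ITD against 2 in wild type. Over all genes 43% had a promoter peak in Flt3-ITD and 39.4% in wild type. Promoter peaks in Flt3-ITD with none in wild type lay at the neutrophil granule protease genes Prtn3 (9.54) and Ctsg (4.9). The growth factor receptor gene Csf3r (3.31) had one too. At Prtn3 a region held by both lists also reached within 1 kb of the start. Beside these, 5.17% of all genes had a promoter peak in Flt3-ITD only and 1.58% in wild type only. Mpo, the gene of myeloperoxidase, had 6 Flt3-ITD only and 1 wild-type only region with a shared promoter. In the other direction Gfi1 had 2 and 5, Cebpa 1 and 2, and Elane and Cd177 0 and 1 each. At Elane, also a granule protease gene, neither list had a promoter peak. Another Ctsg region, 1.53 kb upstream of its start (chr14:56104109-56106701), had 6.8 in Flt3-ITD, 5.61 and 5.01 in the double mutants, 4.74 in NUP98-HOXD13 and no peak in wild type or Runx1-het. Genes of late granules (Ltf, Ngp, Camp, Lcn2, S100a8, S100a9) had no promoter peak in either list. The monocyte genes divided 19 and 20, and F13a1, a coagulation factor gene of monocytes and megakaryocytes, had 6 wild-type only regions and no Flt3-ITD only one, all at 2.36 to 4.67. Dendritic cell and MHC class II genes had 20 Flt3-ITD only and 16 wild-type only regions (55.6%, 39.6 to 70.5%), beside 52.5% at all genes. Batf3 had 2 and 0, Irf4 0 and 2 and H2-Ab1 0 and 1, while Zbtb46, Xcr1 and Siglech had no region. At the dendritic cell gene Clec9a, with 4 and 1, a promoter region (chr6:129406046-129408890) had 8.71 in Flt3-ITD, 4.14 to 6.59 in the other mutants and no peak in wild type.

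Interferon response genes had 35 Flt3-ITD only and 22 wild-type only regions (61.4%, 48.4 to 72.9%). Promoter peaks in Flt3-ITD without one in wild type were found at Ifit3 (5.59), Eif2ak2 (7.08), the gene of the antiviral kinase PKR, and Oas2 (3.53), and the reverse was found at Mx1 (5 in wild type). Each of the first 3 also had promoter peaks in at least 3 of the 4 other mutant lists. Igtp, a guanosine triphosphatase gene that is induced by interferon gamma and stands outside that list, had 9.09 in Flt3-ITD, 7.3 to 11.5 in the other mutants and none in wild type.

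Over all one-list regions the megakaryocyte list had the lowest Flt3-ITD share, with 15 Flt3-ITD only and 30 wild-type only regions (33.3%, 21.4 to 47.9%). Fli1, an ETS factor of stem cells, megakaryocytes and endothelium, gave 8 and 19 of these; without it the list had 7 and 11 (38.9%, 20.3 to 61.4%), and after joining Fli1 had 4 and 6. The list as a whole had 9 and 11 after joining (45%), and it turned to 5 and 4 (55.6%) among one-list peaks with a −log10 q of at least 5, Fli1 having 3 and 2; under neither setting was it the lowest list. Fli1 kept promoter peaks in both lists, at 10.1 in Flt3-ITD and 5.66 in wild type. Selp had 1 and 4 one-list regions and a promoter peak at 3.35 in wild type and none in Flt3-ITD. Erythroid genes had 13 and 7 regions, with Tfrc, the transferrin receptor gene, at 3 and 0. At Car2, carbonic anhydrase 2, the counts were 4 and 4, but a region 28.6 kb from its start site (chr3:14915030-14915688) had 6.98 in wild type, 3.87 and 3.33 in NUP98-HOXD13 and Runx1-het, and no peak in the 3 lists with the ITD.

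Markers of other cell types were nearly even over all one-list regions. B lymphoid genes had 11 Flt3-ITD only and 14 wild-type only regions, T and NK genes 10 and 10, mast cell, basophil and eosinophil genes 11 and 9, and endothelial and stromal genes 9 and 11. The T and NK counts depended on the setting in both directions, with 13 and 2 in equal-length lists and 3 and 8 over regions merged from 6 lists. Of the defining lymphoid genes, Cd3e, Cd8a, Pax5 and Cd79a had no promoter peak in either list. Endothelial and stromal promoters had a Flt3-ITD peak at 4 of 11 genes and a wild-type peak at 2, beside 43% and 39.4% of all genes. The part of cell composition in the differences above was not tested, and in bulk chromatin a change in the share of a cell type and a change within cells cannot be told apart.

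Promoters made up 12.8% (12.3 to 13.3%) of Flt3-ITD only regions, 5.70% of wild-type only regions and 39.3% of shared ones. Counted by gene, 1130 genes (5.17%) had a promoter peak in Flt3-ITD only and 345 (1.58%) in wild type only. Of the 1130, 1071 lay in a region of Flt3-ITD alone, and the others, among them the growth factor gene Gdf9 and Actrt3, lay at the edge of a region that both lists held. Of these 1071 promoters 481 (44.9%) had peaks in all 4 other mutant lists, so that wild type was the exception, and 48 (4.48%) had peaks in both double mutants and neither NUP98-HOXD13 nor Runx1-het. Of the 338 promoters in wild-type only regions, 46 (13.6%) had peaks in all 4 other lists. The strongest of the 48 promoters were at Crisp1 (6.62 in Flt3-ITD, 5.14 and 9.23 in the double mutants) and Dbt (5.93, 3.52 and 4.06). Sh2b2, an adaptor of receptor and JAK kinases, was also among them, at 4.51, 4.45 and 7.38.

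Away from promoters, H3K4me1 of either genotype lay over Flt3-ITD only regions more often than over wild-type only regions, counted over regions of all strengths. Of 13360 distal Flt3-ITD only regions 42.5% (41.6 to 43.3%) had an H3K4me1 peak in wild type and 57.6% in Flt3-ITD; of 14761 distal wild-type only regions 28.0% and 36.7% had one, and of 12045 shared distal regions 70.6% and 83.4%. Since the wild-type peaks are narrower, the shares were also taken in windows of 500 bp on each side of the summit, where they were 48.7% and 63.2%, 37.4% and 46.2%, and 66.0% and 81.3%. The difference between the classes was smaller among strong peaks: of 3506 distal Flt3-ITD only regions with a −log10 q of at least 5, 51.5% (49.8 to 53.1%) had H3K4me1 in wild type and 70.9% in Flt3-ITD, and of 900 such wild-type only regions 49.1% (45.9 to 52.4%) and 62.9%. In windows around the summit the order in wild-type H3K4me1 turned, with 55.4% of the Flt3-ITD only and 58.3% of the wild-type only regions. In both classes of one-list region the Flt3-ITD H3K4me1 list thus had the larger share, and so it did over shared regions. That list is the longer of the 2, with 94580 peaks against 73506. H3K4me1 of Flt3-ITD alone lay over 22.0% of distal Flt3-ITD only, 16.3% of wild-type only and 17.4% of shared regions.

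**Figure D4:**
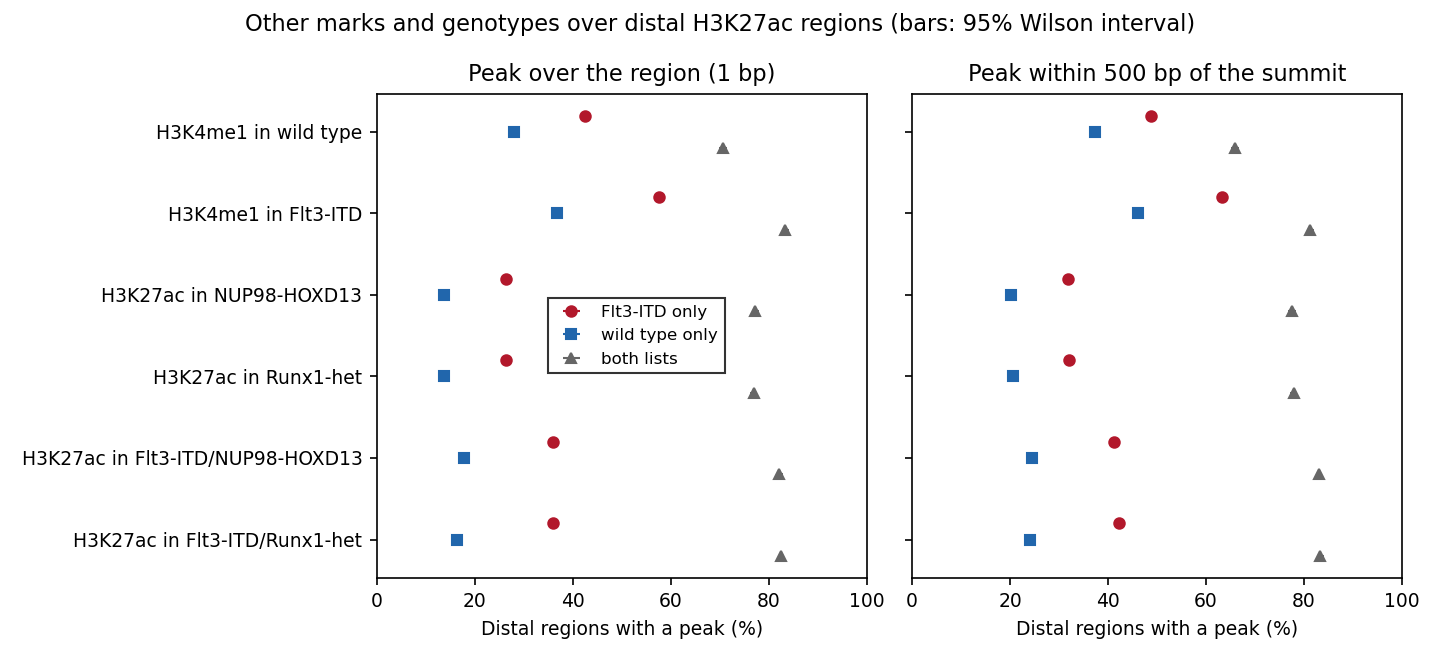
Share of distal regions (x axis, percent) with a peak of each other list (rows), for Flt3-ITD only (red circles), wild-type only (blue squares) and shared regions (grey triangles); left, any overlap with the region, right, a peak within 500 bp of the summit. Intervals (95% Wilson) are narrower than most symbols, and in each row the order is wild type only, Flt3-ITD only, shared.

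The other genotypes held Flt3-ITD only regions more often than wild-type only regions. NUP98-HOXD13 held 26.3% and Runx1-het 26.3% of the distal Flt3-ITD only regions, while Flt3-ITD/Runx1-het held 35.9% and Flt3-ITD/NUP98-HOXD13 36.0%. Of the distal wild-type only regions, NUP98-HOXD13 and Runx1-het each held 13.7%, Flt3-ITD/Runx1-het 16.3% and Flt3-ITD/NUP98-HOXD13 17.7%. In windows of 500 bp on each side of the summit, NUP98-HOXD13 had a peak at 31.9% of distal Flt3-ITD only and 20.1% of distal wild-type only regions. Among regions of fold enrichment 4 to 6 only, these window shares were 42.9% and 26.6%. Those of Flt3-ITD/Runx1-het were then 56.7% and 30.3%. With a −log10 q of at least 5 and any overlap with the region, the shares of NUP98-HOXD13 were 44.6% and 35.8%. Those of Flt3-ITD/Runx1-het were 57.6% and 37.3%. Within 500 bp of the summit the same q limit gave 48.9% and 42.6% for NUP98-HOXD13 and 62.8% and 46.1% for Flt3-ITD/Runx1-het. For Runx1-het it gave 48.3% (46.6 to 49.9%) and 45.3% (42.1 to 48.6%), a small difference with overlapping intervals. No other list held 36.6% of all Flt3-ITD only regions and 63.9% of all wild-type only regions.

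Regions that followed the ITD through the series were few. Of the 15317 Flt3-ITD only regions, 761 (4.97%, 4.64 to 5.32%) were held by both double mutants and by neither NUP98-HOXD13 nor Runx1-het, against 132 (0.862%) held by the latter pair and by neither double mutant. Of the 15654 wild-type only regions, 140 (0.894%) were held by NUP98-HOXD13 and Runx1-het and neither double mutant, and 344 (2.20%) the other way round. The strongest of the 761 lay in an intron of Ndfip2 (chr14:105288055-105288627), an adaptor gene of NEDD4 ubiquitin ligases, with 7.48 in Flt3-ITD and 2.67 and 7.8 in the double mutants. Another lay in an intron of Bcl2, the survival gene, more than 50 kb from any start site (chr1:106611876-106613206), with 7.05, 4.54 and 6.13.

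Of the 8 genes with the most one-list regions in each direction, Foxp1 and Pde4d stood in both sets. Foxp1, a forkhead factor gene, had 22 Flt3-ITD only and 27 wild-type only regions, and Pde4d, a phosphodiesterase gene, had 16 and 17. Cd47, the gene of the "do not eat me" signal that blocks phagocytosis, had the most Flt3-ITD only regions, 23 against 3 in wild type only, beside 12 shared ones. The Cd47 one-list regions had fold enrichments up to 5.14 in Flt3-ITD and joined into 15 and 1, while its strongest region was shared (chr16:49852320-49859539) at 58.3 in Flt3-ITD and 37.5 in wild type. Of the remaining leaders, Map7 had 17 and 10, Fam107b 17 and 11, Retreg1 16 and 6 and Mbnl1 15 and 4 in the Flt3-ITD direction, and Sgms1 had 12 and 20 and Ptpre 12 and 16 in the other. The wild-type direction did not hold at these genes with equal-length lists, which gave Sgms1 15 and 12, Ptpre 13 and 12, Foxp1 25 and 18 and Pde4d 17 and 12. Foxp1 and Ptpre also turned at a −log10 q of at least 5 (9 and 3, 4 and 2), and Pde4d over 6 lists (15 and 12).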

How the data were processed

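The labels placed 3 samples in each group, and each group had 1 deposited peak list. Per the submitters' processing notes BWA, MACS2 and the build mm10 (GRCm38) were used; versions, threshold and control are not stated in these sources. The deposited columns were, for every peak, a score of at most 1000, a ratio (the authors' fold enrichment at the summit), the −log10 p, the −log10 q and the summit position (other). The lowest deposited −log10 p was 2.05 in Flt3-ITD and 2.03 in wild type. No value per sample was used, and depth is unknown. Peaks were merged with pandas 2.3.3 in Python 3.11.15 and assigned to GENCODE release 21 (21840 protein-coding genes, 41421 start sites); a promoter lay within 1 kb of a start site. The class assignment was run on a copy of the wild-type list with peaks removed and added and all others unchanged. That run checks the counting only, since it did not cover lists that differ in peak width. Members and gene lists were chosen with earlier results of these data known. The summit motif search that was planned was replaced by RefSeq promoter windows, since no genome sequence was used here. Named genes are those of the 8 strongest one-list regions in each direction, the 8 with the most such regions, the 8 strongest one-list promoters, up to 4 per gene list, Flt3, and the 8 strongest regions of the 3 lists with the ITD alone; further list members, Igtp, the other strongest promoters and the printed sequences were chosen after their values were seen. Alternatives were equal-length lists, a −log10 q of at least 5, joining across 500 bp, coverage of at least 0.5, merging over 6 lists, autosomes, promoters within 2 kb and genes within 100 kb; windows of 500 bp around summits, the fold range 4 to 6, the q limit for distal shares and promoters in one-list regions only were added after seeing the data.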

Additional observations from a re-analysis of the deposited data

How the results depend on the processing

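No paired analysis was possible because each group was deposited as 1 pooled list with no column per replicate, and for the same reason no sample could be left out. The alternatives gave 76 recomputed values, of which 41 moved (a share past its reported interval, a count by over 1.5 times) and 35 did not, although among these the Flt3-ITD only regions numbered 10539 after joining and 20700 under coverage of at least 0.5 (15317 as reported); none had a test. Equal-length lists gave 10327 wild-type only regions, a Flt3-ITD share of 61.3% of one-list regions and Flt3-ITD H3K4me1 over 41.4% of wild-type only regions (36.2% as reported over all regions). A −log10 q of at least 5 in both lists gave 8922 Flt3-ITD only, 1704 wild-type only and 12033 shared regions, a Flt3-ITD share of 84.0%, promoter shares of 26.1% and 8.63%, wild-type H3K4me1 over 48.8% of Flt3-ITD only regions (39.6% as reported) and Flt3-ITD H3K4me1 over 66.2% of wild-type only regions. Applied to the one-list peak alone, against the full other list, that limit gave 4460 and 967 regions, 82.2%, promoter shares of 21.4% and 6.93%, and H3K4me1 over 44.7% and 61.1%. Joining across 500 bp gave a Flt3-ITD share of 46.9%, promoter shares of 11.1% and 3.90%, and H3K4me1 over 37.2% and 31.1%. Coverage of at least 0.5 gave a share of 56.7%, a promoter share of 18.2% for Flt3-ITD only regions and H3K4me1 over 43.7% of them. Merging over all 6 lists gave a share of 47.6%, promoter shares of 10.9% and 4.32%, and H3K4me1 over 40.4% and 34.7%. Promoters within 2 kb gave 17.9% and 9.79%. Windows of 500 bp around the summit, chosen after seeing the data, gave H3K4me1 over 45.3% and 45.6%. The cause of these moves was not tested. The STAT5 targets had 30 Flt3-ITD only regions against 1 under the limit on the one-list peak, 26 against 5 after joining, 55 against 11 with equal-length lists and 34 against 11 over 6 lists, shares of 96.8%, 83.9%, 83.3% and 75.6%, beside 83.4%, 50.3%, 64% and 50.7% at all genes. The promoter share was higher for Flt3-ITD only than for wild-type only regions under each of the 8 alternatives that recomputed it. Unknown depth limits every statement on a region outside a list.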

Other observations

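Beyond the gene lists, the genes whose counts of one-list regions differed most were examined; they were chosen after their values were seen. Of all protein-coding genes 111 had at least 5 more Flt3-ITD only than wild-type only regions and 57 had at least 5 more wild-type only regions. After Cd47, the largest difference to Flt3-ITD was at Ksr1, the gene of a scaffold protein of the RAF, MEK and ERK cascade, with 15 Flt3-ITD only and 2 wild-type only regions (9 and 2 joined across 500 bp) and a promoter peak at 4.22 in Flt3-ITD and none in wild type. Ankrd28 had 12 and 0 (9 and 0 joined), and its promoter had 15.4 in Flt3-ITD and 8.92 in wild type. Etv6, an ETS repressor gene needed by adult stem cells, had 12 and 3 (7 and 2 joined), with promoter values of 24.3 and 13.6. Mef2c, a transcription factor gene of lymphoid and myeloid progenitors, had 15 and 6 (10 and 3 joined), with 42 and 26.8.

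In the other direction Itga9, an integrin gene, had 2 Flt3-ITD only and 13 wild-type only regions (1 and 8 joined) and no promoter peak in either list. Ikzf2, the gene of the zinc finger factor Helios, had 1 and 8 (1 and 6 joined), with a promoter peak at 10.4 in Flt3-ITD and 10.6 in wild type. Il15, the gene of interleukin 15, had 2 and 9 (2 and 5 joined), with 8.34 and 8.79. At each of these 3 genes at most 1 wild-type only region had a −log10 q of at least 5, and no Flt3-ITD only region did.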
